A study of Mus musculus with 7 samples.

Results

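Genes of fatty acid synthesis and fatty acid oxidation were examined in the left lungs of mice lacking Gata5 (KO), a GATA transcription factor, and of wild-type mice (WT). The members were 36 named genes, and each was read at the Affymetrix probe set that carried its symbol alone and had the highest mean over the 7 arrays. Of the 36 genes, 33 had such a probe set, out of 18193 genes on the array, and all 33 lay above the level filter that 13285 genes passed. They comprised 10 of 10 synthesis genes, 17 of 18 oxidation genes and 6 of 8 genes of fatty acid uptake, activation and mitochondrial uncoupling, and Cpt1b, Acsl1 and Ucp2 were not analysed here. The KO group held 3 mice and the WT group 4, all 8 weeks old and each measured on 1 array from total RNA, and the labels call the arrays biological replicates. The labels list no treatment and state neither the strain, the sex nor which part of Gata5 was deleted.

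Fatty acids are built in the cytosol from acetyl-CoA. ATP citrate lyase supplies it, acetyl-CoA carboxylase turns it into malonyl-CoA, fatty acid synthase extends the chain, and elongases and desaturases then modify it. Oxidation runs in the mitochondrion, where carnitine palmitoyltransferases import the acyl chain, acyl-CoA dehydrogenases, the trifunctional protein and hydroxyacyl-CoA dehydrogenase shorten it, and the electron transfer flavoprotein passes electrons to the respiratory chain. In the lung, alveolar type 2 cells use fatty acids to make the phospholipids of surfactant, lipofibroblasts store them, and the capillary endothelium takes them up from blood.

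Values are log2 levels as deposited, so a difference of 1 is a doubling. Levels of different genes are not ranked, since probes differ in brightness. Changes are KO minus WT, tested with limma and adjusted over all 13285 genes by the Benjamini-Hochberg method, with adjusted p under 0.05 as the threshold. Gata5 itself, at probe set 1450126_at, read 4.98, 4.71 and 5.15 on the KO arrays and 5.32, 5.53, 5.85 and 5.47 on the WT arrays, so all KO arrays were lower. Gata5 lay under the level filter, so no fold is given, and in the fit of all genes without the filter it was lower in KO (limma adjusted p = 0.0326). WT replicate 4 differed from all other arrays in Xist, at 12.72 against 6.31 to 6.48. It also differed in the Y chromosome gene Eif2s3y, at 3.71 against 9.30 to 9.68. By these genes that array reads as female and all others as male, so the WT group was mixed in sex and the KO group was not. Results without WT replicate 4 are given below. The difference between the 3′ and 5′ beta-actin control probe sets was larger on KO arrays, at 4.74 to 5.39 against 3.88 to 4.31 on WT arrays. The 3′ to middle differences were also larger on KO arrays, for beta-actin (2.84 to 3.34 against 2.23 to 2.56) and Gapdh (3.85 to 4.31 against 3.33 to 3.68). These control differences, a gauge of RNA integrity, therefore move with genotype and do not overlap between groups. Fits with a control as covariate are given below, but they cannot fully separate its part from that of genotype. That part was not tested otherwise.

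At their brightest probe sets the fatty acid genes were called about as often as all tested genes, and each change was below 0.5 log2 units in size. Of the 33 genes, read at their brightest probe sets, 2 were called higher in KO lungs (Srebf1 and Hadh, Hadh being called lower at another probe set) and 3 lower (Acadvl, Hadha and Etfb), which is 15.2% of the members, against 15.6% of all tested genes. In whole lung, fewer cells of a type and less RNA per cell cannot be told apart. By direction, 5.56% of all tested genes rose and 10% fell, in numbers 738 and 1331. That split depended on the scaling, with 552 higher and 1610 lower once arrays were centred on their medians, 1193 and 902 after a further quantile normalization, and 942 and 1076 after cyclic loess. The share called among the members was therefore near the background. The change at the probe sets used lay between -0.31 and 0.38 for every member, and 0 of 33 reached a log2 change of 0.5 in size, which 4.7% of all tested genes did. KO and WT arrays did not overlap for 7 members, 2 higher and 5 lower, against 29.6% of all tested genes (12.1% higher and 17.5% lower). The median change was -0.022 over the members and -0.0033 over all tested genes. The spread within groups (pooled SD) had a median of 0.102 over the members, from 0.0281 for Elovl5 to 0.210 for Scd1, and 0.110 over all tested genes.

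**Figure D1:**
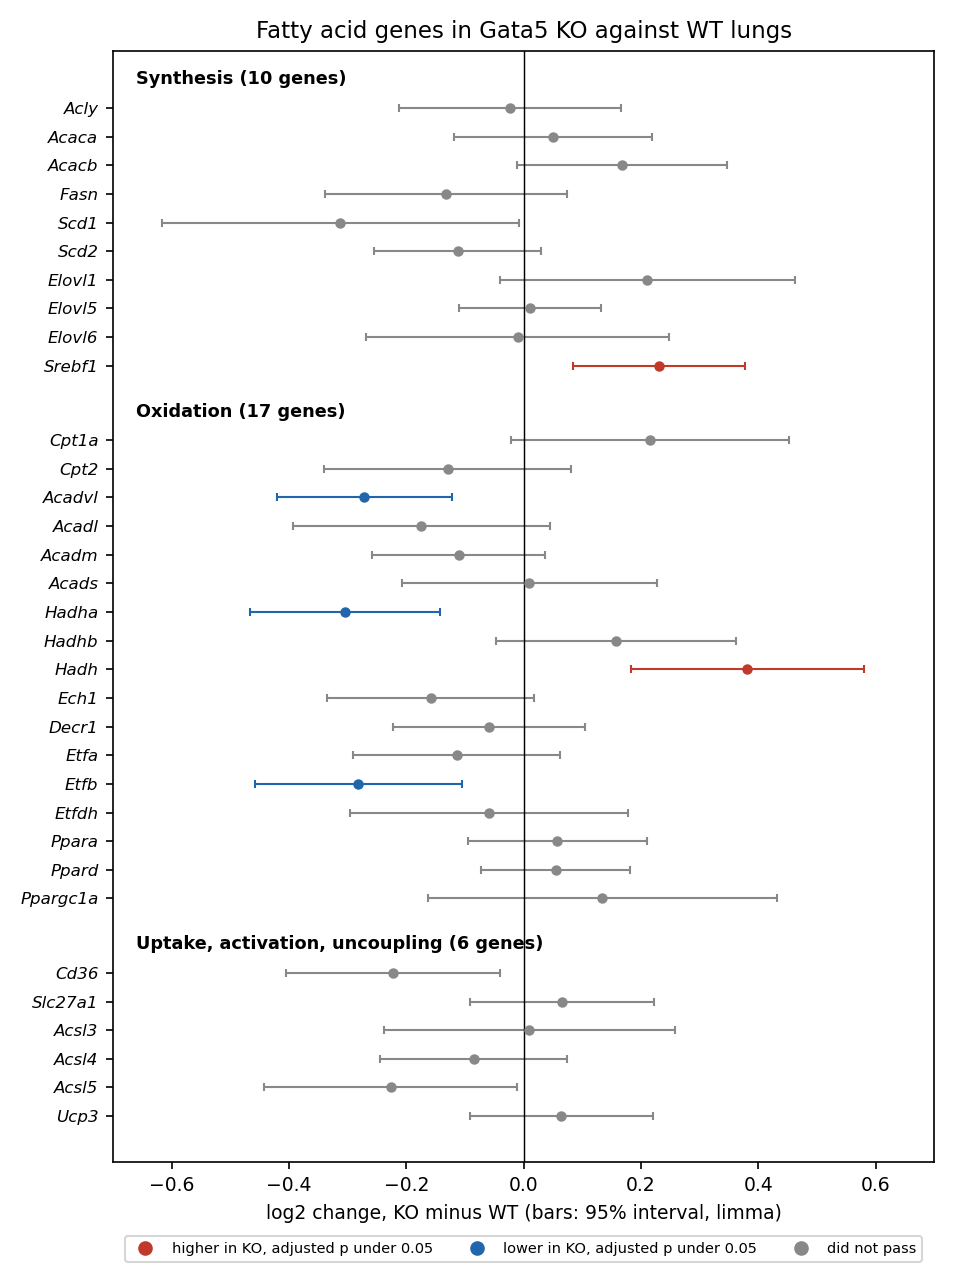
Log2 change, KO minus WT, on the horizontal axis for the 33 fatty acid genes with a probe set, grouped by role, where points are limma estimates (KO n = 3, WT n = 4) and bars 95% intervals. At the brightest probe sets Srebf1 and Hadh (red) lie to the right of 0 and Acadvl, Hadha and Etfb (blue) to the left, and the other 28 (grey) did not pass.

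Within synthesis, the regulator Srebf1 was called at the brightest probe sets and the enzymes were not. Of 10 synthesis genes 1 rose, 0 fell and 9 did not pass, with a median change of 0.00042. That is 10% called, against 15.6% of all tested genes, a difference that was not tested. Srebf1, which encodes the transcription factor SREBP-1 that activates lipogenic genes, read 10.66, 10.82 and 10.78 in KO lungs and 10.53, 10.46, 10.51 and 10.59 in WT lungs. All 3 KO arrays lay above all 4 WT arrays. The change was 0.23 ± 0.064 (SE), or 1.17-fold (limma adjusted p = 0.0446). The call ended when any array other than KO replicate 1 was left out (limma adjusted p up to 0.105), when each array was centred on its median (0.0752) and with the 3′ to 5′ beta-actin difference as covariate (change 0.14, 0.608).

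The enzymes that make the carbon chain had small differences of both signs. Acly, the citrate lyase, differed by -0.022 (95% interval -0.21 to 0.17) at its brightest probe set, an _x_at one. Its other probe sets above the filter had -0.27 (-0.57 to 0.032) and -0.23, and neither passed. Acaca, the carboxylase that feeds synthesis, differed by 0.051 (-0.12 to 0.22). Acacb, the carboxylase isoform at the mitochondrion whose malonyl-CoA inhibits carnitine palmitoyltransferase 1, differed by 0.17 (-0.011 to 0.35). Fasn, fatty acid synthase, read 10.10, 10.07 and 9.89 in KO lungs and 9.97, 10.28, 10.13 and 10.23 in WT lungs, with overlapping groups and a change of -0.13 (-0.34 to 0.074). At the brightest probe sets none of these 4 intervals reached a log2 change of 0.5 in either direction, while that of the second Acly probe set did.

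Among the desaturases and elongases, Scd1 had the most negative value at the brightest probe sets. Scd1, a stearoyl-CoA desaturase that makes monounsaturated chains, read 12.76, 12.66 and 12.35 in KO lungs and 12.74, 12.76, 12.92 and 13.19 in WT lungs. The groups overlapped, KO replicate 3 was the lowest array and WT replicate 4 the highest, and the change of -0.31 did not pass (limma adjusted p = 0.136). Its paralogue Scd2 read 12.75, 12.76 and 12.68 in KO lungs and 12.81, 12.79, 12.82 and 12.95 in WT lungs, with no overlap but a change of only -0.11 (limma adjusted p = 0.228). Elovl6, the elongase of palmitate, differed by -0.010. Elovl5, an elongase of polyunsaturated chains, differed by 0.011 at its brightest probe set, an _x_at one. At its other probe set, 1415840_at, the change was -0.21 with no overlap between groups (limma adjusted p = 0.0543 over all probe sets). Elovl1, an elongase of very long saturated chains, differed by 0.21 (limma adjusted p = 0.205), and its probe sets are treated further on.

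A wider list of 30 synthesis genes outside the members was read in the same way. Of 24 tested, 1 rose, 1 fell and 22 did not pass, with a median change of -0.013. That is 8.33% called, against 15.6% of all tested genes, a difference that was not tested. Acss2, which makes acetyl-CoA from acetate, rose with a change of 0.43 (limma adjusted p = 0.0297), from probe set 1422478_a_at, while its second probe set above the filter had 0.20. Nr1h3, which encodes the sterol-sensing nuclear receptor LXR alpha, a known activator of Srebf1 transcription, fell with a change of -0.67 (limma adjusted p = 0.00807) and passed whichever array was left out. Srebf2, the relative of Srebf1 that governs cholesterol genes, had -0.42 and did not pass (limma adjusted p = 0.0815). The call of Acss2 ended when KO array 2 or 3 or WT array 3 or 4 was left out (limma adjusted p up to 0.0795).

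Within oxidation, Hadha, Etfb and Acadvl fell and most enzymes did not pass. At the brightest probe sets 1 of 17 oxidation genes was called higher (Hadh, whose probe sets oppose each other), 3 fell and 13 did not pass. That is 23.5% called, against 15.6% of all tested genes, a difference that was not tested. The median change was -0.059. A negative change was seen in 10 of all 17. Leaving aside the 3 transcription regulators, whose changes were positive, it was 10 of 14 enzymes and carriers, with a median of -0.11. Of all 13285 tested genes 6754 had a negative change, and the difference in share was not tested. The direction of calls depended on the scaling: after a further quantile normalization or cyclic loess the only oxidation gene called was Hadh, higher in KO, and after centring each array on its median the split stayed at 1 higher and 3 lower.

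At the carnitine step, which controls entry of long chains into the mitochondrion, no gene passed. Cpt1a, the liver form of the outer-membrane enzyme, read 10.97, 10.75 and 11.04 in KO lungs and 10.80, 10.78, 10.77 and 10.47 in WT lungs. The groups overlapped and WT replicate 4 was the lowest array, with a change of 0.215 (95% interval -0.022 to 0.45). Cpt2, the inner-membrane enzyme, differed by -0.13 (-0.34 to 0.081).

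The acyl-CoA dehydrogenases take chains of successive lengths. Acadvl, for very long chains, read 8.97, 8.90 and 8.93 in KO lungs and 9.28, 9.28, 9.13 and 9.13 in WT lungs. No KO array reached the lowest WT array, and Acadvl fell with a change of -0.27 ± 0.065 (SE), or 1.21-fold (limma adjusted p = 0.0289). Acadl, for long chains, had -0.17, Acadm, for medium chains, -0.11 and Acads, for short chains, 0.010, and none of the 3 passed. The Acadvl call ended when KO array 2 or 3 or WT array 1, 2 or 4 was left out (limma adjusted p up to 0.0750), after the quantile step (0.0984) or cyclic loess (0.0817), and with the 3′ to 5′ beta-actin difference as covariate (change -0.22, 0.436).

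The trifunctional protein, which carries out the later steps for long chains, is built of alpha and beta subunits encoded by Hadha and Hadhb. Hadha read 8.35, 8.20 and 8.18 in KO lungs and 8.49, 8.63, 8.47 and 8.60 in WT lungs. The groups did not overlap, and Hadha fell with a change of -0.30 ± 0.071 (SE), or 1.23-fold (limma adjusted p = 0.0267). Hadhb read 11.20, 11.22 and 11.42 in KO lungs and 11.16, 11.21, 11.19 and 10.93 in WT lungs at its brightest probe set, with overlapping groups and a change of 0.16 (limma adjusted p = 0.239). The Hadha call ended when KO array 2 or 3 or WT array 1, 2 or 4 was left out (limma adjusted p up to 0.0760), after the quantile step (0.0725) or cyclic loess (0.0529), and with the beta-actin covariate (change -0.14, 0.612).

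Electrons from the dehydrogenases pass to the electron transfer flavoprotein, a pair of subunits encoded by Etfa and Etfb, and on to its dehydrogenase Etfdh. Etfb read 9.06, 9.33 and 9.19 in KO lungs and 9.50, 9.39, 9.46 and 9.55 in WT lungs. The groups lay 0.060 apart at their nearest arrays, and Etfb fell with a change of -0.28 ± 0.077 (SE), or 1.22-fold (limma adjusted p = 0.0435). Etfa differed by -0.11 (95% interval -0.29 to 0.062) and Etfdh by -0.059 (-0.30 to 0.18). The Etfb call ended when any array other than KO replicate 2 was left out (limma adjusted p up to 0.108) and after the quantile step (0.0773) or cyclic loess (0.0630), while with the beta-actin covariate the change was -0.48 (0.219).

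Proximal promoters of the 3 genes that fell are shown because that of Hadha is shared with its partner Hadhb. The windows run from 250 bases before to 50 after the start given by RefSeq on GRCm38.p6. The window of Hadha (chr5:30154931-30155230, minus strand) overlaps that of Hadhb (chr5:30155003-30155302, plus strand) by 228 bases, marked in capitals: the genes lie head to head and are transcribed away from each other. In the window of Acadvl (chr11:70015379-70015678, minus strand) the capitals mark 1 GATA motif, and in that of Etfb (chr7:43443822-43444121, plus strand) 2 CCAAT boxes, all 3 read on the opposite strand. Other motifs searched for below were left unmarked here. The windows of Hadha and Etfb held no such GATA motif.
Hadha: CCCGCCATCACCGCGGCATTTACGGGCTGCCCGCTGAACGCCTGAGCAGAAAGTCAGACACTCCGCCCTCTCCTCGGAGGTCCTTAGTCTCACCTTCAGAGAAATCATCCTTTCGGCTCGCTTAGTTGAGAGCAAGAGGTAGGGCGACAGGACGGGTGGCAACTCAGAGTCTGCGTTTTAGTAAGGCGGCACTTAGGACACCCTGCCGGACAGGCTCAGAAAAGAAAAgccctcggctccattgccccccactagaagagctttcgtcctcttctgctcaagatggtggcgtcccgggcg
Acadvl: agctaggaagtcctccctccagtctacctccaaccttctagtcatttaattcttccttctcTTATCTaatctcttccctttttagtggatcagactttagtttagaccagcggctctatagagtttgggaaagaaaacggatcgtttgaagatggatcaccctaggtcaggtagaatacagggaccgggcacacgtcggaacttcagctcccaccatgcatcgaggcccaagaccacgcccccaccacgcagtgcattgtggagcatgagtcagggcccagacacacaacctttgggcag
Etfb: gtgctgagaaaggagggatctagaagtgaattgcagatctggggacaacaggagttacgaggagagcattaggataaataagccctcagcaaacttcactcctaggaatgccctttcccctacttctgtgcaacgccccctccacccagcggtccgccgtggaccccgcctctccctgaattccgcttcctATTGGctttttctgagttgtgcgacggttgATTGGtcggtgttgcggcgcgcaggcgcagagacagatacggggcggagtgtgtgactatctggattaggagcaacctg

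The RefSeq windows used here covered 32 of the 36 genes, 38 windows in all (not Scd1, Scd2, Cpt1b or Decr1), and motifs were searched on both strands. A GATA motif (AGATAA or TGATAA) was present in 2 of the 38 windows (5.26%), those of Acadvl and of 1 start of Elovl1, against 18.6% of all 32851 windows of the same length. The CCAAT box (CCAAT) was in 19 of the 38 windows (against 37.4% of all) and the GC box (GGGCGG) in 24 (63.2%, against 35.7%). The nuclear receptor core motif (AGGTCA), of which PPAR sites hold a pair, was in 9 (23.7%, against 16.3%). The E-box CACGTG was in 2 (5.26%, against 7.15%), and the sterol regulatory element and the direct repeat of the nuclear receptor core, which contains that core, were in 0 (0.234% and 0.0396% of all windows). These are matches of letters in short windows, and no factor's binding was measured.

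Hadh, the hydroxyacyl-CoA dehydrogenase of short and medium chains, gave calls in both directions. At its brightest probe set, 1455972_x_at, it read 12.55, 12.63 and 12.76 in KO lungs and 12.33, 12.41, 12.12 and 12.20 in WT lungs. All KO arrays were above all WT arrays, with a change of 0.38 ± 0.087 (SE), or 1.30-fold (limma adjusted p = 0.0249). At 1460184_at it read 9.68, 9.71 and 9.83 in KO lungs and 10.01, 10.13, 9.90 and 10.14 in WT lungs. There all KO arrays were below all WT arrays, with a change of -0.305 (limma adjusted p = 0.0407 over all 45101 probe sets, of which 9.93% were called). No direction can therefore be given for the Hadh transcript. The call at the brightest probe set ended when KO array 3 or WT array 1, 3 or 4 was left out (limma adjusted p up to 0.0746) and with the mean of all its probe sets (change 0.13, 0.259), and the change was 0.47 (0.274) with the beta-actin covariate.

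**Figure D2:**
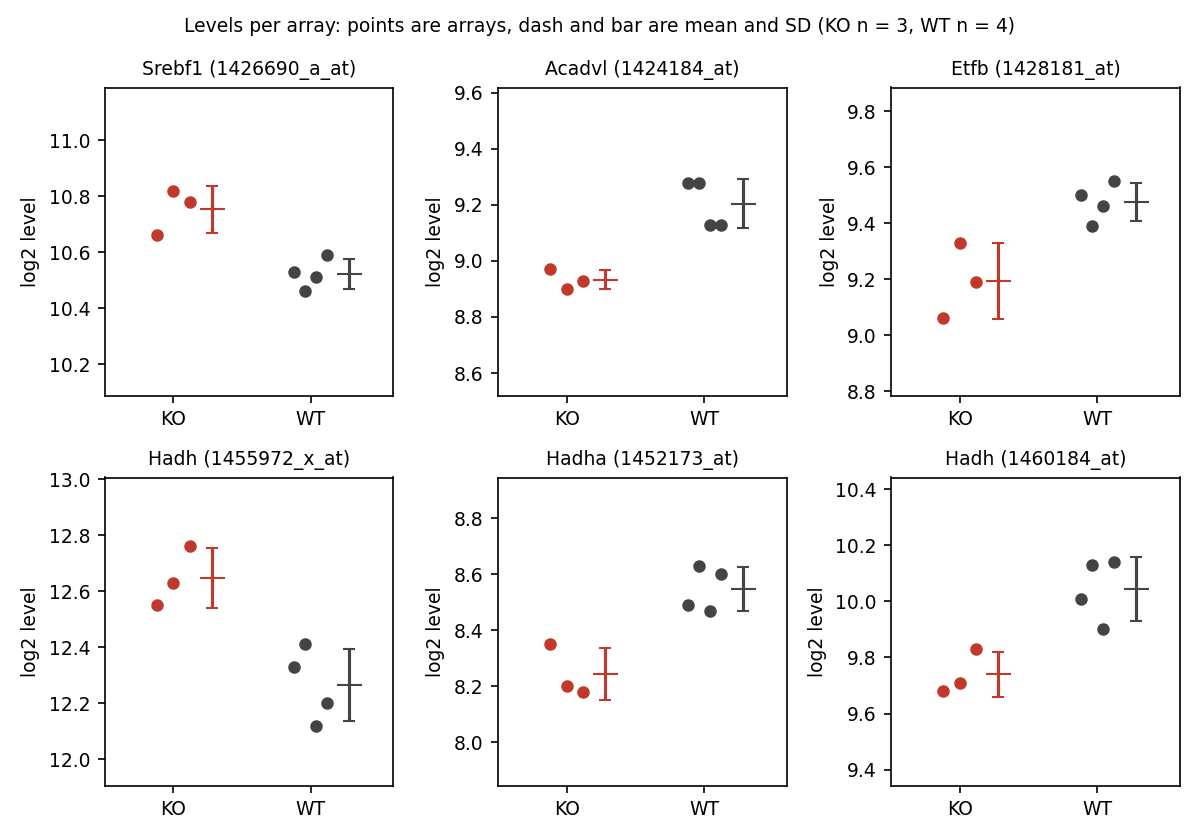
Log2 level on the vertical axis for each of 3 KO arrays (red) and 4 WT arrays (dark grey) at the probe sets of the 5 called genes and at a second probe set of Hadh, with mean and SD beside the points and the same span of levels on each axis. KO and WT arrays do not overlap in any panel, and the Hadh panels run in opposite directions.

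Probe sets differed in sign in other members too, but calls in both directions were limited to Hadh. The members had 74 probe sets, 61 of them above the level filter, and 17 genes had more than 1 above it. In 10 of these 17 genes the probe sets differed in sign, in some by small values, such as -0.059 and 0.0075 for Decr1. How often this held over the whole array was not counted. Affymetrix gives the suffix _x_at to probe sets in which some probes also match other sequences. In 7 genes with both kinds above the filter, Acly, Cpt1a, Elovl1, Elovl5, Hadh, Hadhb and Ppargc1a, the mean change of the _x_at probe sets was above that of the others in 7 of 7. The same order held in 82.4% of 1003 genes on the array with both kinds.

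Elovl1 showed the widest gap. At 1425676_a_at it read 7.93, 6.98 and 7.72 in KO lungs and 8.14, 8.47, 8.41 and 8.75 in WT lungs, all KO arrays below all WT arrays. The change there was -0.90 (limma adjusted p = 0.0407 over all probe sets), or 1.86-fold lower in KO. Its 3 _x_at probe sets had changes of 0.21, 0.19 and 0.37, and none passed. For Cpt1a the _x_at probe sets had 0.215 and 0.23 and the other -0.23. For Hadhb the brightest, an _x_at probe set, had 0.16, 1426522_at had -0.18 and 1442732_at 0.395, the last of which passed over all probe sets (limma adjusted p = 0.0280). With _x_at probe sets left out wherever a gene had another, an option added once the values were known, 3 synthesis genes were called (Srebf1 higher, Elovl1 and Elovl5 lower) and 4 oxidation genes (Acadvl, Etfb, Hadh and Hadha, all lower).

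**Figure D3:**
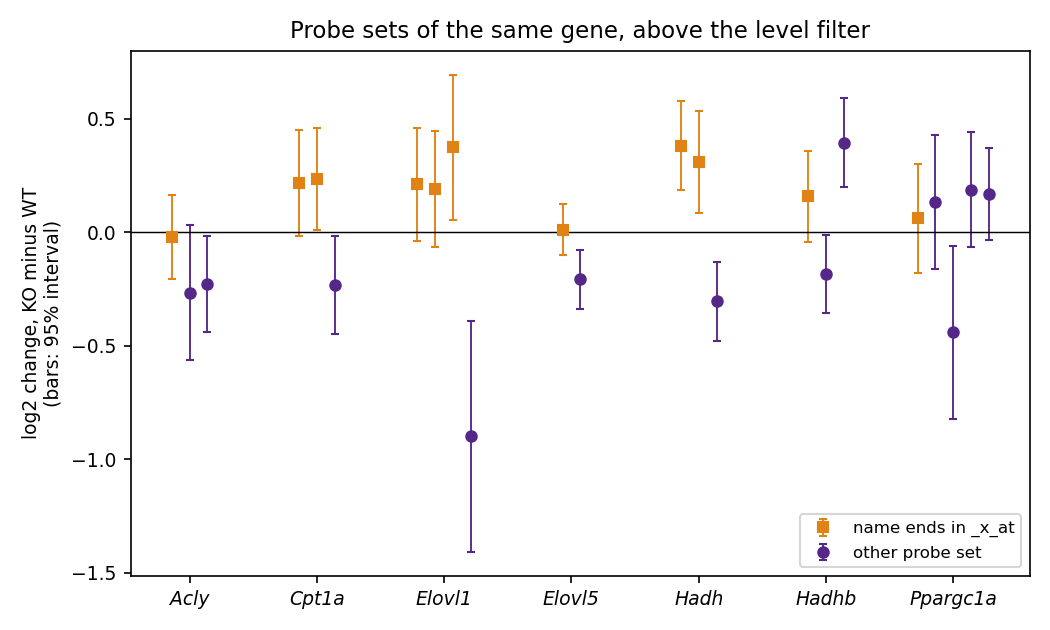
Log2 change, KO minus WT, on the vertical axis for each probe set above the level filter of the 7 fatty acid genes that have both kinds, with 95% intervals from the fit of every probe set. The mean of the orange squares (_x_at probe sets) lies above the mean of the purple circles (other probe sets) in 7 of 7 genes, with the widest gap at Elovl1.

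None of the remaining oxidation genes passed at its brightest probe set. Ech1 and Decr1, an isomerase and a reductase that prepare unsaturated chains, differed by -0.16 and -0.059. The nuclear receptors Ppara and Ppard, which switch on oxidation genes when bound by fatty acids, differed by 0.057 and 0.055, and the coactivator Ppargc1a by 0.13 (95% interval -0.16 to 0.43). Probe set 1439675_at of Ppara, under the level filter, fell with a change of -0.297 (limma adjusted p = 0.0498 over all probe sets), while the others had 0.057 and -0.017. The second probe set of Ppard, 1425703_at, had 0.29 with no overlap between groups (limma adjusted p = 0.0588 over all probe sets).

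In a wider list of 39 oxidation genes, 35 were tested, of which 2 rose, 1 fell and 32 did not pass (median change -0.0075). That is 8.57% called, against 15.6% of all tested genes, a difference that was not tested. Echs1, the enoyl-CoA hydratase that acts on short chains after the dehydrogenases, fell with a change of -0.48 (limma adjusted p = 0.00779), was read by 1 probe set and passed whichever array was left out. Hsd17b4, the bifunctional enzyme of peroxisomal oxidation, rose by 0.24 at an _x_at probe set (limma adjusted p = 0.0458), but its other probe set had -0.18. Esrra, an orphan nuclear receptor that acts with Ppargc1a, rose by 0.36 (limma adjusted p = 0.0489), with 0.083 at its other probe set. The calls of Hsd17b4 and Esrra were lost when any 1 of the 7 arrays was left out (limma adjusted p up to 0.118 and 0.125). Pdk4, a kinase that rises when cells switch to fatty acid fuel, had -0.145 and did not pass (limma adjusted p = 0.762).

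For uptake, activation and uncoupling, 0 of 6 genes passed with limma, against 15.6% of all tested genes. Of the 6, 2 had an unadjusted limma p under 0.05, against 4622 of all 13285 tested genes. The median change was -0.038. Cd36, the fatty acid translocase of capillary endothelium and macrophages, read 11.97, 11.92 and 11.69 in KO lungs and 12.04, 12.13, 12.02 and 12.14 in WT lungs. The groups lay 0.050 apart with KO lower, and the change of -0.22 did not pass (limma adjusted p = 0.0917). The other probe sets of Cd36 had 0.0092 and -0.058. Acsl5, an acyl-CoA synthetase that activates fatty acids, read 11.60, 11.69 and 11.43 in KO lungs and 11.66, 11.73, 11.83 and 11.98 in WT lungs, with overlap at 1 KO array and a change of -0.23 (limma adjusted p = 0.130). Acsl4, the synthetase that prefers arachidonate, differed by -0.085, Acsl3 by 0.010, the transport protein Slc27a1 by 0.065 and the mitochondrial carrier Ucp3 by 0.064.

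In the wider list of 22 uptake and storage genes, 13 were tested, 2 fell and 11 did not pass (median change -0.16). That is 15.4% called, against 15.6% of all tested genes. Plin2, which coats lipid droplets, fell with a change of -0.32 (limma adjusted p = 0.0141) and passed whichever array was left out. Angptl4, a PPAR target that inhibits lipoprotein lipase, fell by 0.78 on the log2 scale (limma adjusted p = 0.0363), a call that ended when KO array 2 or 3 or WT array 1, 2 or 4 was left out (limma adjusted p up to 0.0887). Lpl, lipoprotein lipase, had 0.074, and Gpihbp1, its anchor on capillary endothelium, -0.725 (limma adjusted p = 0.0684), and neither passed.

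Averaged over the genes of a role, differences from the WT means were small on every array, at most 0.114 log2 units in size, while single genes lay further off. The mean over the 14 oxidation enzymes and carriers was -0.075, -0.032 and -0.085 on the KO arrays and 0.0020, 0.095, -0.053 and -0.044 on the WT arrays. KO replicate 2 lay above WT replicates 3 and 4, so the groups overlapped. The mean over the 10 synthesis genes was 0.017, 0.051 and -0.045 on the KO arrays and -0.078, -0.041, 0.0030 and 0.114 on the WT arrays, again with overlap. The mean over the 6 uptake and uncoupling genes also overlapped between groups.

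**Figure D4:**
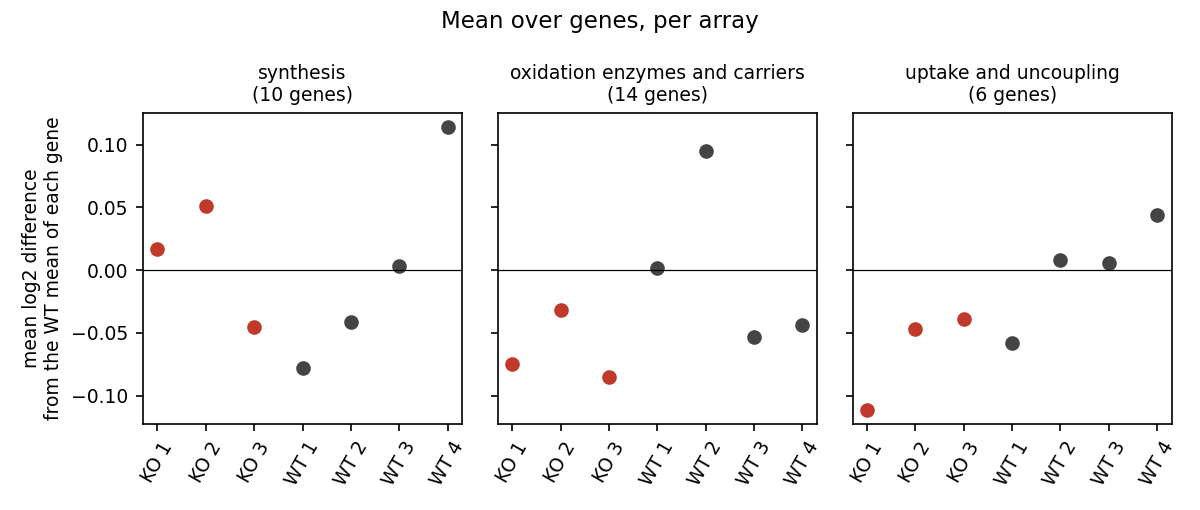
Mean log2 difference from the WT mean of each gene, averaged over the genes of a role, on the vertical axis for 3 KO arrays (red) and 4 WT arrays (grey). The groups overlap in all 3 panels, with WT replicate 4 highest for synthesis at 0.114 and WT replicate 2 highest for oxidation at 0.095.

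Unequal change of partner genes was tested on the within-array difference of 6 pairs. Hadha minus Hadhb read -2.85, -3.02 and -3.24 on the KO arrays and -2.67, -2.58, -2.72 and -2.33 on the WT arrays, with no overlap. KO minus WT was -0.46 (two-sided exact permutation p = 0.0286, the lowest possible with 35 splits, and 0.171 adjusted over the 6 pairs). A lone pair cannot go below 0.171 after that adjustment, so the design could not pass the threshold here and the test decides nothing. With the second probe set of Hadhb the value was -0.12 (exact permutation, 0.286 adjusted). Cpt1a minus Cpt2 gave 0.34, Scd1 minus Scd2 -0.20, Etfa minus Etfb 0.17, Acaca minus Acacb -0.12 and Elovl5 minus Elovl6 0.021, with adjusted exact permutation p between 0.286 and 0.914.

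The tissue and its other cells were checked with marker genes. All 7 measured type 2 markers, all 6 type 1 markers and all 9 endothelial markers lay above the level filter. Sftpc, surfactant protein C, averaged 14.03 in KO and 14.15 in WT lungs, and Ager, a type 1 cell receptor, 14.12 in KO and 14.14 in WT. Changes of the other type 2 markers, some of them larger, are given below. The other type 1 markers had Rtkn2 -0.245, Aqp5 -0.17, Hopx -0.091, Cav1 -0.032 and Pdpn 0.037, and none passed. Of 8 heart and skeletal muscle markers tested (Myh6 and Actc1 the brightest) and 3 adipocyte markers tested, 0 passed with limma, against 15.6% of all tested genes. The fat markers Lep, Cidec and Cidea were under the filter. Mean levels are given for each whole list. The mean levels of the muscle and fat lists overlapped between groups, at 8.54 to 8.91 in KO and 8.42 to 9.14 in WT for muscle and 5.62 to 5.91 in KO and 5.69 to 6.03 in WT for fat. WT replicate 2 held the highest mean of both lists. On it Adipoq, a fat marker above the filter, read 7.78, against 5.36 to 6.61 on the other arrays. That array was also highest in the mean of the oxidation genes, and a link was not tested.

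Some markers of endothelium and lipofibroblasts fell in KO lungs. Of 9 endothelial markers 4 fell, Pecam1 (-1.22), Tie1 (-0.83), Nos3 (-0.60) and Flt1 (-0.47), against 10% of all tested genes. Cldn5 (-0.42), Kdr (-0.27), Tek (-0.21), Cdh5 (-0.15) and Vwf (-0.045) did not pass. The endothelial list's mean level was 9.81 to 10.07 on KO arrays and 10.29 to 10.53 on WT arrays. Of 6 tested lipofibroblast markers 2 fell, the transcription factor Tcf21 (-0.75) and Plin2, against 10% of all tested genes. The list means were 10.55 to 10.78 on KO arrays and 10.89 to 10.94 on WT arrays. Limch1 (-0.35), Pdgfra (-0.32), Npnt (-0.12) and Lpl (0.074) did not pass. Plin2 and Lpl also stand in the wider uptake and storage list, so they are not separate results here. Of the 7 type 2 markers and 8 macrophage markers 0 passed with limma, against 15.6% of all tested genes. The type 2 changes were Sftpb -0.74, Napsa -0.41, Slc34a2 -0.21, Sftpa1 -0.18, Sftpd -0.13, Sftpc -0.12 and Abca3 0.051. The list means were 12.24 to 12.36 in KO against 12.46 to 12.70 in WT for type 2 cells, with no overlap. For macrophages they were 8.75 to 9.15 in KO against 9.03 to 9.37 in WT. The macrophage changes were Mrc1 -0.57, Siglecf -0.48, Marco -0.39, Cd68 -0.285, Car4 -0.26, Chil3 -0.21, Pparg -0.015 and Fabp4 0.029. The part of these cell types in the values of Cd36, Plin2 and the other genes was not tested. The call of Nos3 was lost without KO replicate 3 (limma adjusted p = 0.0588), and that of Flt1 with the mean of its probe sets (-0.135, limma adjusted p = 0.113).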

How the data were processed

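Biotin-labelled cRNA from left lungs was read on Affymetrix Mouse Genome 430 2.0 arrays, per the labels. The values deposited by the authors are log2 levels, 45101 probe sets by 7 arrays. The submitters' processing notes name RMA, MAS5 and Affymetrix Expression Console without versions or roles. Which of them made the table is therefore not known here, and the log base was read from the range of values, which were used unchanged. The platform annotation gave 1 gene for 34945 of the probe sets, several for 932 and none for 9160, with 64 controls set aside.

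For each gene the probe set of highest mean was kept, and the gene was tested if that mean reached 5.47, the 40th percentile of all probe sets. The genotype model was lmFit followed by eBayes (limma 3.58.1, R 4.3.3). Probe sets of members were also taken from a fit of all probe sets. Gata5 lies under the filter. Intervals are at 95%. The number of arrays limits the precision. The members and lists were chosen with earlier results of these data known. Named genes were the 36 members, the wider-list genes that passed, markers that passed or were brightest, and controls; others were named after their values were seen. Promoter sequences are from RefSeq on GRCm38.p6. On simulated arrays with 13285 genes the fit recovered 49 of 66 genes planted at a log2 change of 0.5 and 58 of 61 at 1, with 7 false calls among 186. Such rates need not hold for changes below 0.5. Nor need they hold on the real arrays, since the simulated noise was independent between genes and had no control difference tied to genotype. Alternatives changed the scaling, filter, probe sets, variance model, array weights, control covariates, replicate block and arrays used. Figures used matplotlib 3.10.9 under Python 3.11.15.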

Additional observations from a re-analysis of the deposited data

Results flagged for a closer look

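Of the 33 members, 3 had a WT array far from the other 3 relative to the range of the group, where chance gives about 1 in 20 groups. Cpt1a stood at 10.47 on WT replicate 4, against 10.77 for the nearest other WT array. Etfa stood at 10.20 on WT replicate 2, against 10.02 for the nearest. Ppard stood at 6.33 on WT replicate 4, against 6.35 on each of the other WT arrays, a gap of the size to which the values were rounded. KO groups hold 3 arrays and were not examined in this way.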

How the results depend on the processing

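In all 21 alternatives that gave them a value, the changes of Srebf1, Acadvl, Hadha and Etfb kept their direction, although each lost its call in some. Much of this was fixed in advance. Each of these genes had 1 probe set, so other filters or choices of probe set left its change as it was. Their KO and WT arrays did not overlap, so leaving arrays out could not turn the sign. Over all tested genes 2069 were called with limma. That count was 0 with the 3′ to 5′ beta-actin difference as covariate (2204 genes at unadjusted p under 0.05), 0 with the 3′ to middle difference, a covariate chosen after seeing the data (1742), 5 with the Gapdh difference (2726), 0 in the 5 mice whose mouse numbers were lowest (2791), 371 with the replicate block, and 891 to 1951 when 1 array was left out (891 without WT replicate 4, 1017 without WT replicate 1, 1104 without either KO replicate 3 or WT replicate 3). Synthesis genes called with limma numbered 0 under each of those covariates, in those 5 mice, with the replicate block, with array weights and after median centring, and 0 or 1 when 1 array was left out, but 3 without _x_at probe sets. Oxidation genes called numbered 1 after quantile normalization, 1 after cyclic loess, 0 with each covariate, in the 5 mice and with the block, and 0 to 3 when 1 array was left out (0 without KO replicate 3, WT replicate 1 or WT replicate 4, 1 without WT replicate 2, 2 without KO replicate 2 or WT replicate 3). At unadjusted p under 0.05 the oxidation counts under the 3 covariates were 3, 1 and 5, and the synthesis counts 0, 2 and 0. Uptake genes called stayed at 0. Among called values, the second probe set turned the direction of Hadh (-0.305) and Hsd17b4 (-0.18), and leaving out _x_at probe sets did so to the same values and gave calls in the opposite direction for Elovl1 (-0.90) and Elovl5 (-0.21). Uncalled values also changed sign, with the second probe set for Elovl5, Hadhb, Decr1, Ppara, Cd36 and Acsl3, and without _x_at probe sets for Cpt1a and Hadhb. Hadha minus Hadhb moved to -0.12 and Elovl5 minus Elovl6 to -0.18 with second probe sets. Of 33 members, 24 had the opposite sign in at least 1 alternative, and 9 in none. Replicate numbers did not pair arrays across groups (correlations of deviations 0.0033, -0.042 and 0.035 for numbers 1 to 3), so the replicate block removes an array and degrees of freedom without a known pairing. The cause of the other changes was not tested. Recovery of changes under 0.5 on the log2 scale, the range of all members at their brightest probe sets, was not simulated.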

Other observations

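The sign of a change depended on the kind of probe set across the whole array, a comparison made after the values of the members were seen. Among 1003 genes with both an _x_at and another probe set above the level filter, the _x_at mean change was the higher in 826 genes (82.4%), with a median within-gene difference of 0.22. Over all probe sets above the filter with 1 gene, the median change was 0.10 for 1480 _x_at probe sets and -0.025 for the other 20939. The share is a description of these 7 arrays, since probe sets on the same arrays are not independent.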
